A study of Mus musculus with 4 samples.

Results

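The histone genes of the mouse were examined for nearby NR1D1 peaks. They were the protein-coding genes whose RefSeq symbol starts with a histone prefix (H1f, H2ac, H2af, H2az, H2ax, H2bc, H2bu, H3c, H3f, H4c, H4f or the older Hist1h to Hist4h), 76 of 21887 protein-coding genes on chromosomes 1 to 19, X and Y. A member counted as having a peak when a listed peak reached within 1 kb of either end of the gene. NR1D1 (REV-ERB alpha) is a heme-sensing nuclear receptor of the circadian clock that switches its target genes off. It was mapped by CUT&Tag, in which an antibody tethers a transposase that cuts out the DNA beside the bound protein, in primary vascular smooth muscle cells grown from wild-type mouse aorta. The cells had received vasostatin-2, a peptide cut from chromogranin A, for 24 h, or phosphate-buffered saline (PBS) for 24 h. Each treatment had 1 NR1D1 library, and a control IgG library of each treatment was not analysed here. The sources used here do not give the age, sex or strain of the mice, how many were pooled, or the dose. The sample labels name no batch that separates the libraries. Because each treatment has a single library, replicate error is unknown and no effect of treatment was tested; each difference is one between these libraries.

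Histones package DNA into nucleosomes, with the core proteins H2A, H2B, H3 and H4 wrapped by DNA and the linker H1 at its entry. Most of their genes sit in clusters, lack introns and are switched on in S phase, when newly copied DNA needs packaging, and many H2A and H2B genes stand head to head and share the short promoter between them. Replacement variants such as those of H2az1, H2az2, H3f3a and H3f3b are encoded elsewhere, by genes that are active throughout the cell cycle.

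The peak lists held 8816 peaks for vasostatin-2 and 7377 for PBS. The fragments at each summit were recovered from the deposited values, with a median of 7 in the vasostatin-2 list and 8 in the PBS list, and the vasostatin-2 library was the deeper, by a factor of 1.32 read from the background level. Of 6 smooth muscle markers 0 had a vasostatin-2 peak and 1 (Smtn) a PBS peak within 1 kb of an end, and of 9 markers of endothelium, leukocytes and fibroblasts 0 had a vasostatin-2 peak and 1 (Pdpn) a PBS peak. Peaks do not measure expression, so the identity of the cells rests on the labels. Intervals are 95% intervals (Wilson for shares, exact Poisson for counts) and cover counting error only.

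Few histone genes had a peak in the vasostatin-2 list and more had one in the PBS list. In the vasostatin-2 list 4 of 76 members had a peak (5.26%, 2.07 to 12.8), against 10.4% of all protein-coding genes. In the PBS list 18 of 76 did (23.7%, 15.5 to 34.4), against 14.8% of all protein-coding genes. The 4 members of the vasostatin-2 list also had a PBS peak (5.26% in both lists, against 7.19% of all genes), 14 were in the PBS list only (18.4%, against 7.58%) and 0 in the vasostatin-2 list only (against 3.2%). A count of 0 was read as allowing up to 3 counts, here 3.95%. The other 58 members had no peak in either list. A site is a peak of the PBS list together with any vasostatin-2 peak that overlaps it by at least 1 bp.

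Neighbouring members shared peaks, so that the count of genes runs ahead of the count of peaks. The 4 members of the vasostatin-2 list had 3 distinct peaks, and the 18 of the PBS list had 10. Of the 10 sites 8 counted for 2 members each and 2 for 1. Counted as distinct peaks, histone genes had 3.95 per 100 genes in the vasostatin-2 list (0.814 to 11.5) and 13.2 in the PBS list (6.31 to 24.2). All protein-coding genes had 8.78 per 100 in the vasostatin-2 list and 12.4 in the PBS list, values inside those intervals. The PBS share by gene lay above that of all genes, while the PBS rate by peak was close to it. In PBS lists made stricter by q or by fold the share by gene was also close to that of all genes. It was 7.89% of members (3.67 to 16.2) against 7.35% at a q of 1e-05 or lower. Among peaks above the list's median fold it was 10.5% (5.43 to 19.4) against 9.46%. Among peaks of at least 8 fragments it was 13.2% (7.31 to 22.6) against 10.6%, a value inside the interval.

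Histone genes are short, with a median span of 502 bp, and 65 of 76 span at most 2 kb. Of those 65 members 1 had a vasostatin-2 peak (1.54%, 0.272 to 8.21), against 2.36% of all protein-coding genes of that span. In the PBS list 14 of 65 did (21.5%, 13.3 to 33.0), against 3.48% of all genes of that span. In distinct peaks, the short members had 1 in the vasostatin-2 list, or 1.54 per 100 genes against 2.36 for all short genes, and 8 in the PBS list, or 12.3 per 100 against 3.45. Short histone genes thus had more PBS peaks than short genes at large, and about as many as protein-coding genes of all lengths.

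**Figure D1:**
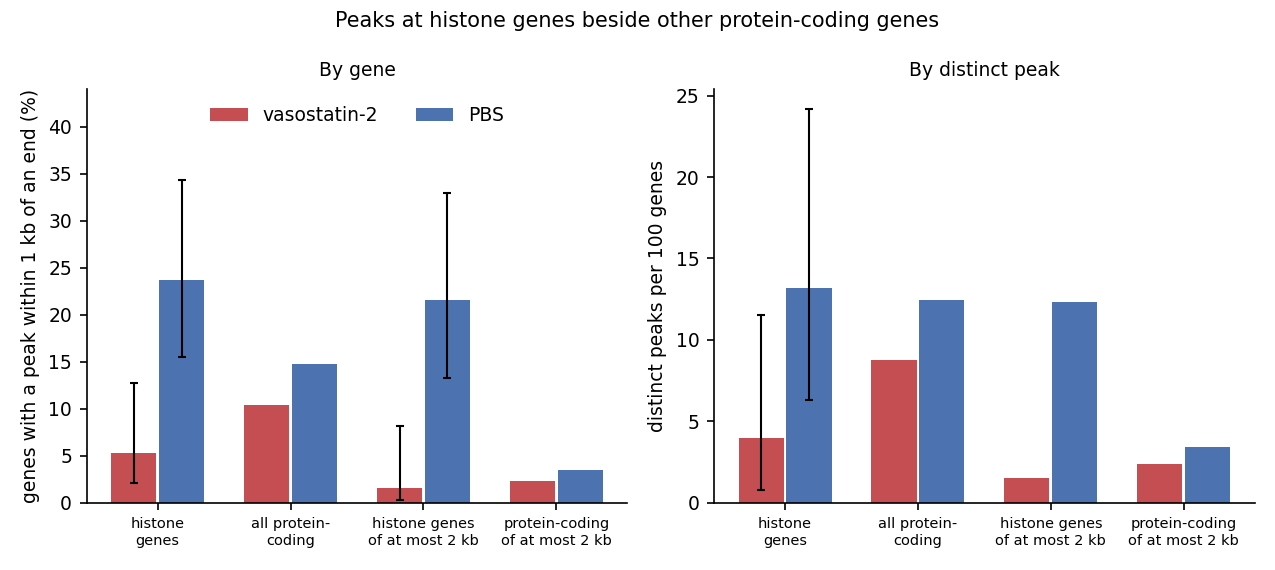
Percentage of genes with a peak within 1 kb of an end (left) and distinct peaks per 100 genes (right) for histone genes and for other sets of protein-coding genes, in the vasostatin-2 library (red) and the PBS library (blue). Bars on the left are Wilson intervals (histone genes) and on the right exact Poisson intervals (all histone genes). By gene the PBS share of histone genes (23.7%) is above that of all genes (14.8%), while by distinct peak the values are 13.2 and 12.4 per 100 genes.

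In the PBS list 7 of the 10 peaks lay in the larger cluster on chromosome 13, and in the vasostatin-2 list 1 of 3. That cluster (chr13:23531044-23934913) holds 31 members in 404 kb, 2 of which had a vasostatin-2 peak (1 distinct peak) and 14 a PBS peak (7 distinct peaks). The other cluster on chromosome 13 (chr13:21715711-22043658) holds 22 members in 328 kb, with a vasostatin-2 peak at 0 and a PBS peak at 2, H2ac15 and H2bc15, which share it. The cluster on chromosome 3 (chr3:96219885-96270192) holds 10 members of the H2A, H2B, H3 and H4 families in 50.3 kb, and no peak of either list lay within it. Clusters were runs of at least 3 members with gaps of at most 500 kb. Of the 13 members outside clusters 2 had a peak, in both lists.

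By family, most members with a peak were H2A and H2B genes, which are also the most numerous. In the vasostatin-2 list 2 of 20 H2A genes had a peak, 1 of 17 H2B genes, 1 of 16 H3 genes, 0 of 13 H4 genes and 0 of 10 H1 genes. In the PBS list the counts were 6 of 20 H2A, 6 of 17 H2B, 4 of 16 H3, 1 of 13 H4 and 1 of 10 H1 genes. Adjacent H2A and H2B genes share peaks, so these counts are not independent of each other.

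In the larger cluster on chromosome 13 the PBS list had 8 peaks, 7 of them within 1 kb of a member's end. The vasostatin-2 list had 5 peaks in this cluster, of which 1 was. The other PBS peak lay inside Slc17a1, which encodes a phosphate transporter, 62171 bp from the nearest histone gene end. The other 4 vasostatin-2 peaks had 4, 9, 8 and 14 fragments, and 0 of them overlapped a PBS peak, against 16.95% of the 6436 vasostatin-2 peaks with 4 to 14 fragments away from protein-coding gene ends. The Wilson interval of 0 of 4 reaches 49.0% and includes that share. Of the 4, 2 lay inside the 37455 bp span of H2bc6 and 1 inside the 8282 bp span of H2bc4. The peak of 14 fragments (8.67-fold) lay in no annotated gene, 14486 bp from an end of H4c3. The peak of 4 fragments lay 2007 bp inside an end of the H2bc6 span, with its summit 130 bp after an annotated start there, so the rule by gene ends did not count it.

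**Figure D2:**
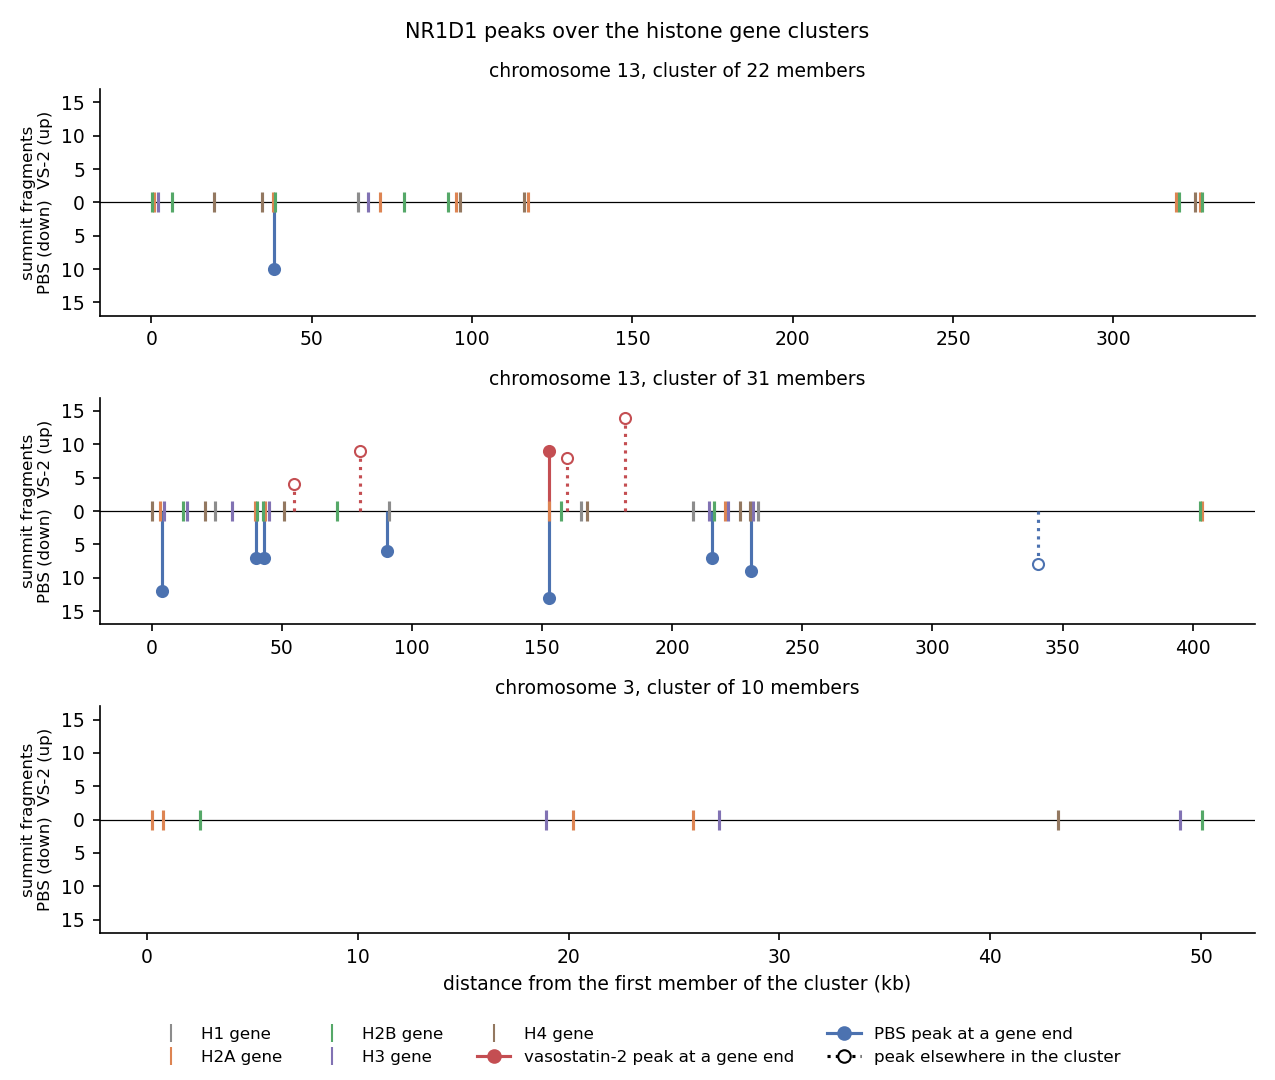
Peaks over the 3 histone gene clusters by distance from the first member (kb). Stems give summit fragments, upward for vasostatin-2 (red, VS-2) and downward for PBS (blue); filled circles are peaks within 1 kb of a member's end, open circles other peaks, and ticks on the line are genes coloured by family. The cluster of 31 members has 7 filled PBS circles and 1 filled vasostatin-2 circle, and the cluster on chromosome 3 has no peak.

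Some members have near-identical copies, where reads can fit more than 1 place. Of the 70 members with a promoter window in the RefSeq table, 9 shared a run of at least 100 bases with the window of another member at another place, 200 to 285 bases in all. These were H2ac18 and H2ac19, H3c14 and H3c15, H2ac23, H2ac24 and H2bc23, and H4c17 and H4c18. None of the 9 had a PBS peak, against 16 of the 70. On chromosome 3 they made up 4 of 9 windows. How the authors treated reads with several matches is not given in the sources used here, and the part of shared sequence in the absence of peaks was not tested.

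The 3 sites with a peak in both lists were H2az2, H2ac6/H2bc4 and H3f3a. At H2az2, which encodes a form of the H2A.Z variant found at promoters, the summit held 14 fragments in the vasostatin-2 library and 14 in the PBS library. By the authors' values the vasostatin-2 peak (chr11:6444096-6444748) had 7.84-fold enrichment over the local background and its summit 165 bp after a start of the gene. The PBS peak (chr11:6444101-6444750) had 6.83-fold enrichment and its summit 90 bp after it. At H2ac6 and H2bc4, a clustered H2A and H2B gene, the summit held 9 fragments in the vasostatin-2 library and 13 in the PBS library. The vasostatin-2 peak (chr13:23683722-23683975) had 5.44-fold enrichment and the PBS peak (chr13:23683621-23684054) 6.58-fold, with summits 90 bp (vasostatin-2) and 84 bp (PBS) after the start of H2ac6. At H3f3a, a gene of the replacement histone H3.3, the summit held 7 fragments in the vasostatin-2 library and 11 in the PBS library. The vasostatin-2 peak (chr1:180813649-180813830) had 4.22-fold enrichment and the PBS peak (chr1:180813472-180813927) 6.003-fold. Their summits were at -123 bp (vasostatin-2) and -265 bp (PBS), counted from the start with negative values before it. Of the 8 clustered sites only H2ac6/H2bc4 had a peak in both lists.

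Per unit of depth the vasostatin-2 library held fewer fragments at all 3 of these sites. With summit counts divided by depth, the log2 ratio of vasostatin-2 to PBS was -0.40 at H2az2 (-1.58 to 0.78), -0.93 at H2ac6/H2bc4 (-2.34 to 0.41) and -1.05 at H3f3a (-2.66 to 0.45), and each counting interval holds 0. Summed over the sites, 30 fragments (vasostatin-2) against 38 (PBS) gave a ratio of -0.74 (-1.48 to -0.01). This interval takes the inferred depth factor as exact, and its upper end lies close to 0. The sites come from 1 pair of libraries and are not replicates. The median over the 3 sites was -0.93, beside -0.86 over 1222 overlapping peak pairs at protein-coding gene ends. Among the 500 pairs at gene ends with the same range of summed fragments, 18 to 28, it was -0.81. The histone sites thus lay close to the level of gene ends in general, of which 95.5% had a ratio below 0.

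At 7 sites, all on chromosome 13, a peak was listed for PBS alone, with 6 to 12 fragments and 4.17-fold to 6.60-fold enrichment. The most fragments were at H3c8, an H3 gene, with 12 and 5.16-fold enrichment over a high local background (chr13:23535193-23535561); its edge lay 815 bp from an end of H2ac10, which therefore also counted. At H2ac15 and H2bc15, the peak (chr13:21753778-21754141) had 10 fragments and 6.60-fold enrichment, the highest fold of the sites listed for PBS alone. At H4c1, an H4 gene, the summit held 9 fragments with 5.46-fold enrichment (chr13:23760916-23761209), and the edge lay 676 bp from H3c1. At 3 sites the summit held 7 fragments. These were H2ac8 and H2bc8 (4.25-fold, chr13:23571098-23571443), H2bc7 and H2ac7 (4.17-fold, chr13:23574249-23574474), and H2bc3 with H3c3 (4.49-fold, chr13:23746363-23746598). The site with fewest fragments, 6 with 4.96-fold enrichment (chr13:23621440-23621781), lay between H2bc6 and H1f4, at -564 bp from a start of H2bc6 and 119 bp past the 3′ end of the linker histone gene H1f4. The members just inside the limit of 1 kb were H3c3, 842 bp from the peak's edge, and H2ac10 at 815 bp.

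**Figure D3:**
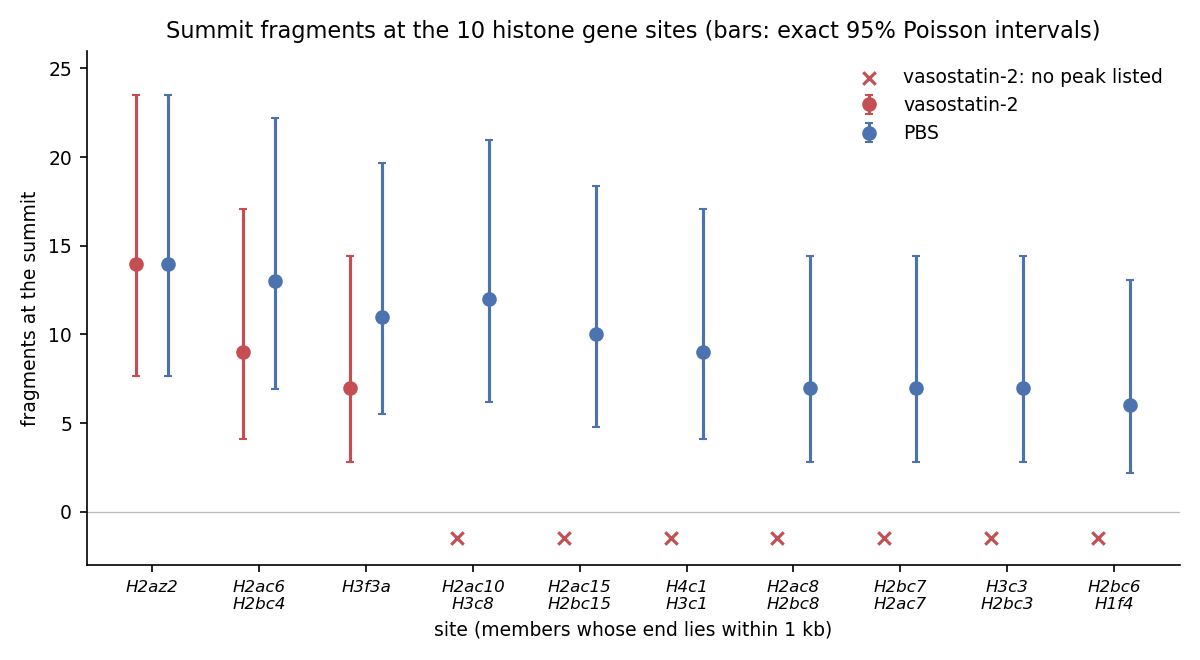
Fragments at the summit for the 10 sites in the vasostatin-2 library (red) and the PBS library (blue), with exact 95% Poisson intervals; crosses below the zero line mark sites with no listed vasostatin-2 peak. H2az2 has 14 fragments in both libraries, and the 7 sites listed for PBS alone have 6 to 12.

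The absence of these 7 sites from the vasostatin-2 list rests on few fragments. With the PBS background scaled to the vasostatin-2 depth, a summit there needed 5 to 9 fragments to reach the weakest p-value of that list. A signal at the PBS level would have given 7.91 to 15.8 fragments at the vasostatin-2 depth, which reaches that number at 7 of 7 sites. The lower end of the counting interval of the PBS count falls short of it at 6 of 7, the exception being H2ac15/H2bc15. That interval leaves out the counting error of the vasostatin-2 library, so it does not set H2ac15/H2bc15 apart from the others. The PBS level used is also the count by which these sites came to be listed. It leaves out the lower depth-scaled vasostatin-2 signal at shared gene-end peaks in general (median log2 ratio -0.86), so it sets no expectation for histone genes. The vasostatin-2 fragments at these sites are not known, and the part of counting error in their absence from the list was not tested. As a share of each list, 3 of 3 vasostatin-2 peaks at histone genes overlapped a PBS peak (43.9 to 100%), against 62.9% of all vasostatin-2 peaks at protein-coding gene ends. Of the 10 PBS peaks 3 overlapped a vasostatin-2 peak (30%, 10.8 to 60.3), against 44.4% of all PBS peaks at gene ends and 36.4% of the 1867 with 6 to 14 fragments. Both shares of all peaks lie inside the intervals of the histone genes.

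Summits lay close to the starts of genes. The RefSeq promoter table gives a start and strand for 70 members and has no entry for H2ax, H2bc4, H2bc21, H3c1, H3c7 and H4c14. Of the 10 PBS summits 9 lay within 300 bp of an annotated start of a member, the exception being that of H2bc6 at -564 bp. The rule takes only peaks within 1 kb of an end of these mostly short genes, so nearness to a start is partly set by it. No share over all gene ends is given beside this count. Of the 10 summits 5 lay before the start and 5 after it. The summit nearest to a start was at H2ac7, 4 bp after it.

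**Figure D4:**
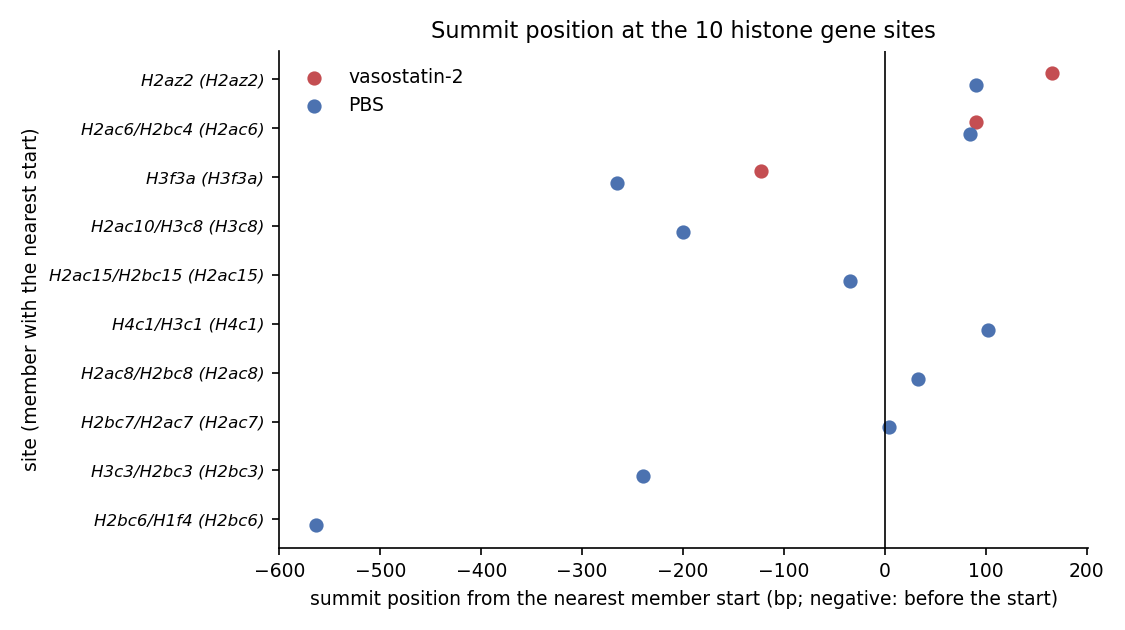
Position of the summit from the nearest annotated start of a member (bp, negative before the start) at the 10 sites, for vasostatin-2 (red) and PBS (blue), with the member that has this start in brackets. The PBS summits run between -564 bp at H2bc6 and 102 bp at H4c1.

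Head-to-head pairs of histone genes had a PBS peak about as often as other such pairs. The table gives 9 pairs of members that start in opposite directions within 1000 bp of each other, all of an H2A and an H2B gene, with 164 to 281 bp between the starts (median 180). A vasostatin-2 peak overlapped the stretch between the starts at 0 of 9 pairs, which allows up to 3 of 9 (33.3%), against 20.4% of 746 head-to-head pairs of protein-coding genes. A PBS peak did so at 3 of 9 (33.3%, 12.1 to 64.6), against 32.7% of the 746. The 3 pairs were H2ac15 and H2bc15, H2ac8 and H2bc8, and H2bc7 and H2ac7. Members with no entry in the promoter table, such as H2bc4, could not be paired. H2ac6 and H2bc4 are therefore not among the 9, although a peak of each list reached into the stretch between them. The pairs without a peak in either list were H2ac11 and H2bc11, H2ac12 and H2bc12, H2bc13 and H2ac13, H2ac22 and H2bc22, H2bc23 and H2ac23, and the testis genes H2bc1 and H2ac1.

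The promoters at 5 of the clustered sites show how the peaks sit on these short regulatory stretches. They are given for the 4 sites with most PBS fragments whose summit fell inside a promoter window (ties broken by fold) and, chosen after its values were seen, for H2ac6, the clustered site with peaks in both lists. The sequences, from RefSeq on GRCm38.p6, the assembly of mm10, run 5′ to 3′ on the strand of the named gene and end at the base before its start. They hold up to 250 bases and stop where the next histone gene begins. Capitals mark matches, on either strand, to the CCAAT box (CCAAT), bound by NF-Y, the TATA box (TATAAA) and the octamer (ATTTGCAT) known from H2B promoters. The core motif of nuclear receptors (AGGTCA) and the E-box (CACGTG) were searched in the same way and have no match in these windows. None of these strings contains another.
H3c8, chr13:23535168-23535417, plus strand: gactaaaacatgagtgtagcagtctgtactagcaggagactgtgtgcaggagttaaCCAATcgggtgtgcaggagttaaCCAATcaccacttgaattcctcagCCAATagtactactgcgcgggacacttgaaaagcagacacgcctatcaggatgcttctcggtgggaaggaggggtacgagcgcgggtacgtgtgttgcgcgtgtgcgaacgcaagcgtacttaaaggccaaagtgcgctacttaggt
H2ac15, chr13:21753913-21754075, minus strand: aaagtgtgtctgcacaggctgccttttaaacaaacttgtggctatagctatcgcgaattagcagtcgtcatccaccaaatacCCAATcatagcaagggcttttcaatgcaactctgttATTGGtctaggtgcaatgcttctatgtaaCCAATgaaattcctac
H2bc3, chr13:23746484-23746733, plus strand: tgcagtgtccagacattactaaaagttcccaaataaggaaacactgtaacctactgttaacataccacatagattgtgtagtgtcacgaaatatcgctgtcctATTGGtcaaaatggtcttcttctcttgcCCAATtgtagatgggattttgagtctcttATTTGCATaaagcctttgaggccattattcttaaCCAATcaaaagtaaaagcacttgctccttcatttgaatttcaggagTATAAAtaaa
H2ac8, chr13:23571221-23571399, minus strand: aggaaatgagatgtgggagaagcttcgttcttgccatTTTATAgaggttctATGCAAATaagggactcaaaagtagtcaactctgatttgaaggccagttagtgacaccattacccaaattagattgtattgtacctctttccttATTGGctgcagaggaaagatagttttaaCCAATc
H2ac6, chr13:23683960-23684198, minus strand: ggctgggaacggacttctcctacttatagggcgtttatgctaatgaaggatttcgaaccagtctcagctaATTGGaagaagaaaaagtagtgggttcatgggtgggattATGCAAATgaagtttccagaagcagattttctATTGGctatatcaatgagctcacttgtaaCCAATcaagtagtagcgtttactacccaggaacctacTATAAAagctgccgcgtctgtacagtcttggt

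The H3c8 promoter has 3 CCAAT boxes, and the PBS summit lay at -200 bp from the start, just outside the outermost of them, whose first base is at -194. In the 163 bases between H2ac15 and H2bc15 the summit lay at -35 from the start of H2ac15, between CCAAT boxes that begin at -45 (as ATTGG on this strand) and -16. The H2bc3 window holds an octamer at -90 with CCAAT boxes on both sides of it, and its summit lay at the outer edge, at -240. The 179 bases between H2ac8 and H2bc8 hold an octamer and a TATA box toward H2bc8 and 2 CCAAT boxes toward H2ac8, and the PBS summit lay outside them, 33 bp after the start of H2ac8. The stretch between H2ac6 and H2bc4 holds 3 CCAAT boxes, an octamer at -130 and a TATA box at -32, and both summits lay beyond it, inside H2ac6. A match is a description of the letters and not a bound site.

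Histone promoters as a group were rich in the CCAAT box and poor in the receptor core motif, with or without a peak. In 300-base windows (250 bases before to 50 after the start, 1 window per gene) the CCAAT box was in 57 of 70 members (81.4%), against 39.0% of 17492 protein-coding genes. It was in 16 of 16 windows of members with a PBS peak and in 41 of 54 without (75.9%). Such a member has a PBS peak within 1 kb of a gene end, and the windows of H2ac10, H3c3, H1f4 and H2bc6 hold no PBS peak themselves. By family it was in 19 of 19 H2A and 15 of 15 H2B windows but in 3 of 12 H4 windows. The TATA box was in 52.9% of members against 13.3% of all genes, and the octamer in 18.6% against 1.71%. The octamer matches were in 6 H2A, 6 H2B and 1 H3 window. The core motif AGGTCA was in 4 of 70 members (5.71%), against 14.5% of all genes, and in 0 of the 16 with a PBS peak. The E-box was in 1 of 70, against 7.90%. Windows of head-to-head neighbours overlap, so members are not independent, and the absence of these letters from a window says nothing of NR1D1 itself.

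**Figure D5:**
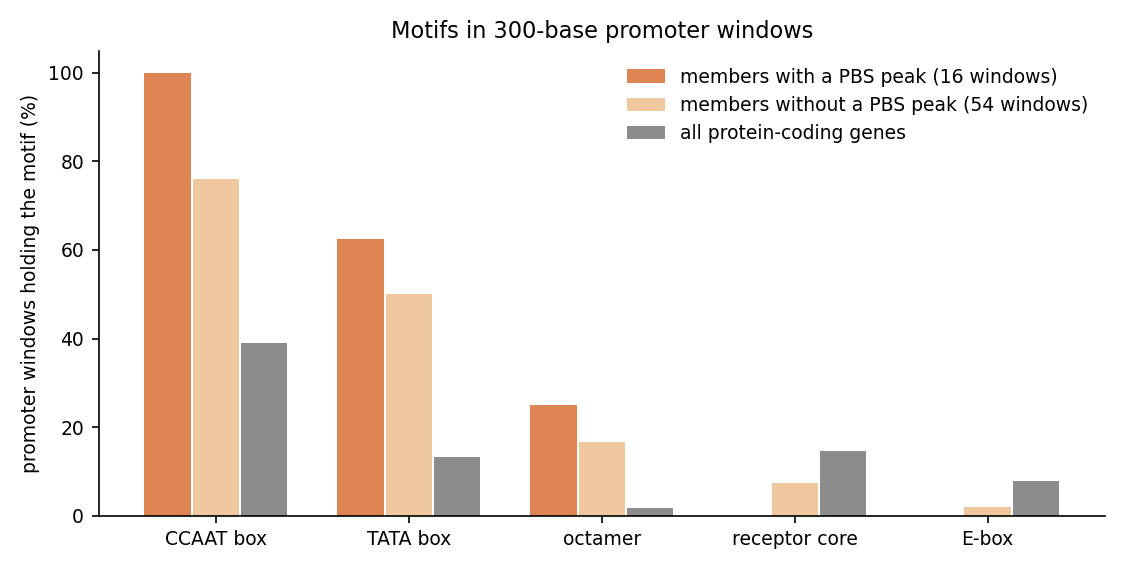
Percentage of 300-base promoter windows with at least 1 match on either strand, for histone genes with a PBS peak (dark orange), histone genes without (light orange) and all protein-coding genes (grey). The CCAAT box is in 100% of the first set, 75.9% of the second and 39.0% of the third, and the receptor core motif in 0%, 7.41% and 14.5%.

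Among the replacement variants, which the cell makes outside S phase too, H2az2 and H3f3a had a peak within 1 kb of an end, as given above, and H2az1, H2ax, H3f3b, H1f0 and H1f10 had none in either list. H3f3b, the other H3.3 gene, had a peak in both lists just past the limit, 1282 bp from the gene's end in the vasostatin-2 list and 1274 bp in the PBS list. Its summits held 9 fragments in the vasostatin-2 library (4.99-fold, chr11:116024526-116024757) and 12 in the PBS library (5.74-fold, chr11:116024570-116024765). They lay at -162 bp (vasostatin-2) and -212 bp (PBS) from the start of H3f3b in the promoter table, which is inside the annotated span. By that start both H3.3 genes had a peak at the promoter in both lists. Germline genes of the H1 family, H1f6, H1f7 and H1f8, had no peak.

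The peaks at histone genes were of ordinary size for gene ends. The median summit held 9 fragments in the vasostatin-2 list and 9.5 in the PBS list, against 8 (vasostatin-2) and 10 (PBS) over all peaks at protein-coding gene ends. Median fold enrichment was 5.44 in the vasostatin-2 list, against 5.26 at all gene ends, and 5.31 in the PBS list, against 5.80. The fragments in the 10 kb around a summit, read from the local background, had a median of 49.0 at the vasostatin-2 peaks and 46.0 at the PBS peaks, where they ran between 21.0 and 77.5 with the most at H3c8. The medians over all gene-end peaks were 38.5 (vasostatin-2) and 39.5 (PBS), and 3 of 3 vasostatin-2 and 8 of 10 PBS histone peaks lay above them. The part of this background in the peak counts was not tested.

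Peaks were also counted at the genes that make and handle histones. Of 15 genes for the transcription and 3′ end processing of histone mRNA 4 had a vasostatin-2 peak (26.7%) and 5 a PBS peak (33.3%). Of 20 histone chaperones 8 had a vasostatin-2 peak (40%) and 11 a PBS peak (55%). Over both sets of genes 34.3% had a vasostatin-2 peak, beside 10.4% of all protein-coding genes, and 45.7% a PBS peak, beside 14.8%, with no test of the sets. These genes were chosen by function.

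Of the mRNA genes, Slbp, which encodes the protein that binds the stem-loop of histone mRNA, had 11 fragments in the vasostatin-2 library and 19 in the PBS library. Zfp473, a zinc finger protein of the 3′ end processing complex, had 9 with vasostatin-2 and 12 with PBS, and Pou2f1, the octamer-binding factor OCT1, had 5 with vasostatin-2 and 10 with PBS. Hinfp, an activator of H4 genes, had a PBS peak alone with 17 fragments (9.23-fold), as had Yy1, a zinc finger transcription factor, with 16 (9.04-fold). Sympk, a scaffold of the processing complex, had a vasostatin-2 peak alone with 6 fragments. Npat and Casp8ap2, which act at histone gene clusters, had no peak in either list.

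Of the chaperones, 6 had a peak in both lists. Chaf1b and Rbbp4, subunits of the CAF-1 complex that deposits newly made histones behind the replication fork, had 7 and 10 fragments in the vasostatin-2 library and 16 and 15 in the PBS library. Hira and its partners Ubn1 and Ubn2, which deposit H3.3, had 8, 6 and 14 fragments with vasostatin-2 and 10, 8 and 10 with PBS. Ubn2 was the gene of these lists with more fragments in the vasostatin-2 library among those listed in both. Daxx, another H3.3 chaperone, had 2 peaks in each list, and the stronger, with 14 (vasostatin-2) and 24 (PBS) fragments, lay over 6 kb past its start near the other end of the gene. With a peak in the PBS list alone, Asf1b had 13 fragments (7.81-fold) and Anp32e, which removes H2A.Z, 10 (6.56-fold). Ssrp1, a FACT subunit, had 2 peaks, also in the PBS list alone. Of these, 1 had 20 fragments (5.84-fold) and lay at the far end from the start of the gene. Nap1l4 had a vasostatin-2 peak alone, with 15 fragments (9.76-fold).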

How the data were processed

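The submitters' processing notes name build mm10 and, with no roles or settings, MACS2 2.2.7.1, Trimmomatic 0.39 and BWA 0.7.17. Each deposited peak list is that of 1 NR1D1 library. With no settings named, it is not known here whether an IgG library served as the background. The authors' deposited values are the fold enrichment (ratio of the summit to its local background), the -log10 p-value and -log10 q-value of the summit and a score, left unused because it is a rounded copy of the -log10 q. Starts are written from 1.

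Summit fragments were recovered as the whole numbers that give the deposited fold and -log10 p under the Poisson model of MACS2; 100% of peaks were solved within 0.0005, with 4 PBS peaks less certain, and 100% of 2998 simulated peaks came back. The background floor (0.381 in the vasostatin-2 library, 0.31 in the PBS library) and its step (183 and 196 bp for 1 fragment in an assumed window of 10000 bp) gave the relative depth of 1.32. The relative depth takes the background to be that of the NR1D1 libraries themselves. Library totals are not given in the sources used here.

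Genes and promoters came from the RefSeq tables of GRCm38.p6. Any overlap of a peak with the 1 kb window counted; the join was checked against bedtools 2.31.1 on simulated peaks (Python 3.11.15, pandas 2.3.3, scipy 1.17.1). Ratio intervals are exact (Clopper-Pearson) on the fragments of both libraries. The promoter table has no entry for 6 members.

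The members and gene lists were chosen with earlier results of these data known. All members with a peak were named, and of the supply lists every gene with a peak in both lists and up to 4 per list with a peak in 1, by fold. Slc17a1, H2aj, the chromosome 13 peaks away from gene ends and genes named without a peak were picked after their values were seen. Alternatives changed the window, the use of the summit, the strictness of the lists, the overlap, the depth scaling and the members.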

Additional observations from a re-analysis of the deposited data

How the results depend on the processing

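No paired analysis was possible because each treatment has 1 library. Counts were held to 1.5 times the reported count, and shares of protein-coding genes and the log2 ratio to their counting intervals; by that measure 44 recomputed values stayed close and 35 did not. Stricter settings leave fewer peaks to count, and wider ones more; any other cause was not tested. In every setting run the PBS list had at least as many distinct peaks at histone genes as the vasostatin-2 list and more histone genes with one. The share of all protein-coding genes with a peak was also higher in the PBS list wherever it was recomputed. That direction is therefore not particular to histone genes. Pairs of values are vasostatin-2, then PBS.

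With a 3 kb window distinct vasostatin-2 peaks numbered 6 (PBS 11, little changed), and 13.8% and 18.1% of protein-coding genes had a peak; with 500 bp 9.05% and 13.4% did. With q of 1e-05 or lower 1 and 6 histone genes had 1 and 4 peaks, 1 of each list shared, beside 3.47% and 7.35% of protein-coding genes and 4 supply genes for vasostatin-2. Among peaks above their list's median fold 8 histone genes had 5 PBS peaks, and 6.11% and 9.46% of protein-coding genes had one. With at least 8 fragments 10 histone genes had 6 PBS peaks, beside 6.36% and 10.6% of protein-coding genes and 7 supply genes for vasostatin-2. With at least 8 fragments per unit of PBS depth 1 and 10 histone genes had 1 and 6 peaks, 1 of each list shared, beside 3.18% and 10.6% of protein-coding genes and 4 supply genes for vasostatin-2. Outside the larger cluster on chromosome 13, 2 and 4 histone genes had a peak, from 3 distinct PBS peaks. Without depth scaling the median ratio at shared sites was -0.53, although H2az2, with 14 fragments in both libraries, then showed no difference. No shared site had 30 fragments together, so that setting gave no value.

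Summits of 6 to 12 fragments limit the count of sites in the PBS list alone. The PBS excess of histone genes over all protein-coding genes by share was near 0 at a q of 1e-05 or lower (7.89% against 7.35%). With at least 8 fragments the PBS shares were 13.2% and 10.6%.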

Other observations

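Other histone genes carry symbols outside the prefixes used. There are 28 of them, among them Cenpa, which encodes the H3 variant of centromeres, Macroh2a1, Macroh2a2, and the germline H2A genes of the X chromosome. Of these 28 genes 1 had a vasostatin-2 peak within 1 kb of an end, against 10.4% of all protein-coding genes. A PBS peak was listed at 0 of them, against 14.8%. The gene with a peak was H2aj on chromosome 6, an H2A variant gene, with 6 fragments and 4.69-fold enrichment. It is the only histone gene of the 104 examined with a peak in the vasostatin-2 list alone.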
